A study of Homo sapiens with 4 samples.

Results

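The response of the whole transcriptome to *miR-486-3p* was measured on 1 array of transfected cells labeled A549 and set against 2 mock arrays of cells that received the transfection reagent alone. Its members were all probes detected (called well above background by the scanner software) after *miR-486-3p* or in each of the mock arrays, 32726 of 58201 probes, and they covered 16446 of the 22439 genes that could be named. A549 is a human cell line labeled as lung adenocarcinoma. The cells grew in RPMI medium, and Lipofectamine RNAiMAX carried the RNA. The series holds 4 one-color Agilent arrays in all, and the array of *miR-486-5p*, the other strand of the same precursor, enters only where it is named. The mock cells received no small RNA, so an effect of the *miR-486-3p* sequence and an effect of any transfected small RNA cannot be told apart within this comparison. Dose and time are not in the labels, and with 1 transfected array the difference has no replicate check of its own.

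A miRNA is a small RNA that Argonaute proteins carry to mRNAs with a complementary seed site, mostly in the 3′ untranslated region, and the bound mRNAs are repressed and shortened in life. The precursor hairpin gives a 5p and a 3p strand, and *miR-486-3p* is the one long regarded as the passenger strand. A few direct targets are seldom the whole response: when a target holds a cell in one phase of its cycle or alters a transcription factor, the programs downstream move as blocks. Cell lines of adenocarcinoma divide fast, and the genes of the S phase, mitosis, nucleotide supply and ribosome production are therefore well expressed in culture.

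The label A549 was checked first, and several defining genes went against it. A549 is known to carry a homozygous deletion at 9p21 that removes *CDKN2A*, *CDKN2B* and *MTAP*. On these arrays all 6 probes of those 3 genes were well above background on the 3 arrays. The *CDKN2A* value was 4.77 and 4.76 on the mock arrays and 2.54 after *miR-486-3p*, and that of *MTAP* was 1.49 and 1.51 on the mock arrays and 0.27 after *miR-486-3p*. Of 25 probes to 16 genes that A549 is known to express, 14 were well above background on the 3 arrays and 9 on none of them. The fibrinogen genes *FGA*, *FGB* and *FGG* and the epithelial cadherin *CDH1* were among those never above background, and the aldo-keto reductase *AKR1B10*, a hallmark of A549, was above background by 1 of 2 probes, and only on the *miR-486-3p* array. The keratins *KRT7*, *KRT8* and *KRT18* and the NRF2 target *NQO1* were above background on every array. The cells are therefore called the cells labeled A549 below, and no other identity was assigned to them. Of a marker list for other cell types, 4 of 4 leukocyte, 2 of 5 endothelial, 2 of 5 fibroblast and 2 of 4 erythroid genes were above background on the 3 arrays. The log2 of the summed leukocyte signal lay between −0.45 and −0.04, with the *miR-486-3p* array highest, and its part in the results was not tested.

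The 3 arrays lay on 1 slide, were read in 1 scan and held no saturated spot. Values are log2 of the background-corrected signal minus the 75th percentile of the array, and a difference is the value after *miR-486-3p* minus that of the mock mean. Over 28780 probes detected throughout, the mock arrays differed from each other with an SD of 0.199, whereas the *miR-486-3p* difference had an SD of 0.979. A gene is said to have fallen or risen if its difference was at least 1 on the log2 scale, that is 2-fold, and the *miR-486-3p* value lay outside both mock values. By this rule 2311 of the 16446 genes fell (14.1%) and 2431 rose (14.8%). Between the mock arrays 62 genes (0.377%) differed as much. That count is no fair contrast, because genes entered if detected on both mock arrays or after *miR-486-3p*. Where the mock side was not above background, both of its values were set to the detection limit and could hardly differ. Over the 28780 probes detected throughout, 0.149% passed a difference of 1 between the mock arrays, and 24.99% did so after *miR-486-3p*. A fall or rise of at least 2 on the log2 scale, or 4-fold, was found for 528 and 574 genes. limma, whose only residual degree of freedom lies between the mock arrays and which assumes that the single array varies as they do, called 5155 genes lower (31.3%) and 5228 higher (31.8%) at a Benjamini-Hochberg adjusted p of 0.05. It called 2304 of the genes that fell and 2315 of those that rose. Its standard error had a median of 0.10 over the genes, and its smallest adjusted p was 0.006.

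The balance of falls and rises rests on the scaling. With each array centered on its median, the median of all genes moved from 0.06 to −0.32 and the counts became 3809 falls and 1386 rises, so that 73.3% of the calls were falls against 48.7% here. With another background correction (normexp, with an offset of 50 added to each signal) the counts were 1312 and 710, of which 64.9% were falls. Directions of gene groups are therefore given beside the median of all genes, 0.06. The direction also went with brightness. In the dimmest 20% of the genes 5.71% fell and 27.6% rose, with a median of 0.48. In the brightest 20%, 20.5% fell and 6.11% rose, with a median of −0.22. A detection limit entered for 36.3% of the dimmest genes and 0.0608% of the brightest. A gene detected only after *miR-486-3p* could hardly be counted as a fall. With detection required on all 3 arrays, 2204 genes fell and 1900 rose. The part of the filter in this pattern was not tested. Each group is therefore described by its members. Under normexp the lists of falls from cell division to nuclear transport all kept more falls than rises, while lists of rises became shorter. Genes that rose then numbered 6 of 43 for autophagy, 5 of 32 for complement, 4 of 42 for fatty acid oxidation, 3 of 35 for TGF-β and 1 of 20 for MHC class I. Without the offset, the median signal was 7.95 and 8.28 on the mock arrays and 8.57 on the *miR-486-3p* array. An offset of 50 shrinks the differences of dim genes whatever their source. Counts under normexp are therefore no check of rises among dim genes. Lists whose balance turned with the scaling are named as such. Beyond the genes chosen by rule, members named for their role were chosen after their values had been seen.

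**Figure D1:**
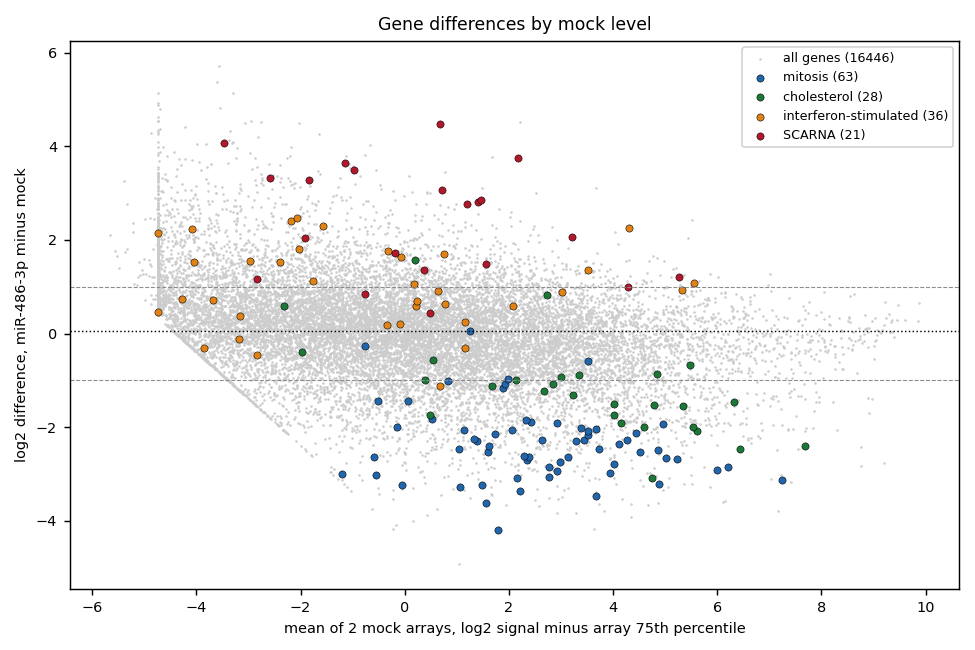
Each point is 1 gene: the horizontal axis gives the mean of the 2 mock arrays (log2 signal minus the array's 75th percentile), the vertical axis the log2 difference after *miR-486-3p*. Dashed lines mark ±1 and the dotted line the median of all genes, 0.06; the straight lower left edge and the column at the far left are genes whose dim side was set to the detection limit. Of the 63 mitosis genes (blue) 59 lie below −1, and of the 21 SCARNA genes (red) 18 lie above 1.

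Genes of cell division held most of the long runs of falls. Mitotic spindle, kinetochore and checkpoint genes had the lowest median of the 49 lists examined: 59 of 63 fell, none rose, and the median was −2.46. *AURKB*, the kinase of the chromosomal passenger complex, read 1.76 and 1.81 on the mock arrays and −2.42 after *miR-486-3p*. The mock arrays lay close together and the *miR-486-3p* array far below both, an 18.5-fold loss (limma adjusted p = 0.006). Its partner in that complex, *INCENP*, had a difference of −3.36. *NUF2* and *SPC25*, which belong to the NDC80 complex that grips microtubules, differed by −3.62 and −3.48. *TPX2*, which builds the spindle, differed by −3.22, and the checkpoint kinase *BUB1* by −2.46. *UBE2C* and *CDC20*, which serve the anaphase-promoting complex, differed by −2.86 and −2.09. The 4 genes that did not pass the limit were *DSN1*, *BUB3*, *NSL1* and *MIS12*, at −0.98, −0.59, −0.27 and 0.05. Of these, *MIS12*, *DSN1* and *NSL1* encode subunits of the MIS12 complex at the inner kinetochore. The *miR-486-5p* array, set against the same mock arrays, had 27 of these 63 genes lower and none higher, with a median of −0.92. It had 17 of 52 replication genes lower (median −0.87) and 7 of 14 H4 histones (median −1.01), beside 4.61% of all genes lower and 2.53% higher on that array. Both comparisons share their mock arrays, and no test of one strand against the other was made. In this bulk RNA, fewer cells in a phase of the cycle and less RNA per cell cannot be told apart.

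Promoters of the mitosis genes carried the letters of the CHR element, TTTGAA, through which many such genes are repressed outside G2 and mitosis. The window searched was RefSeq's (GRCh38.p14) 250 bases before to 50 bases after the start, on both strands. TTTGAA stood in 30 of 52 promoters of the list that could be matched (57.7%) and in 10.4% of the 12680 promoters of all genes measured. CCAAT, the box bound by NF-Y, stood in 35 of 52 (67.3%), against 36.3%. Over all genes that fell, 13.9% held TTTGAA, and over all that rose 9.65%. A few windows are shown because they hold the CHR letters, in capitals, in genes that fell, on the strand of the gene (TTCAAA is the same element read on the other strand):
*CDC20* (chr1:43358904-43358933): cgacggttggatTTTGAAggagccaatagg
*CDCA8* (chr1:37692481-37692510): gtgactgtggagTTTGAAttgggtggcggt
*HMMR* (chr5:163460598-163460627): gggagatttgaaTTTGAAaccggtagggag
*KIFC1* (chr6:33391815-33391844): tggccgttggaaTTCAAAagtggcgggtgt
The element began 65 bases before the start in *CDC20*, 23 before in *CDCA8* and 22 before in *HMMR*, and 4 bases after it in *KIFC1*. *CDCA8*, *HMMR* and *KIFC1* differed by −2.65, −2.53 and −2.69. A match of letters is a description and not a binding site.

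Of the genes that license and fire replication origins and run the fork, 40 of 52 fell and none rose, with a median of −1.76. *GINS2*, a subunit of the GINS complex that turns the MCM ring into an active helicase, read 4.06 and 4.04 on the mock arrays and 0.84 after *miR-486-3p*. The other members of that helicase fell as well: *CDC45* by 2.98, *GINS1* by 2.46, *GINS3* by 2.23 and *MCM2* to *MCM7* by 1.69 to 2.05. The origin firing factor *TICRR* differed by −3.32, the polymerase subunits *POLE2* and *POLA1* by −2.96 and −2.71, and the sliding clamp *PCNA* by −1.99. The origin recognition subunits were uneven: *ORC1*, *ORC3* and *ORC6* fell, while *ORC4* had a difference of 0.82 and *ORC2* of −0.79. The letters TTTGGCGC or TTTCCCGC of E2F sites stood in 16 of 45 matched promoters of this list (35.6%), against 3.36% of all. These windows show the E2F letters in capitals, on the strand of the gene (GCGGGAAA is the second word read on the other strand):
*GINS2* (chr16:85688967-85688996): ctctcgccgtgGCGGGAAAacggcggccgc
*PCNA* (chr20:5126663-5126692): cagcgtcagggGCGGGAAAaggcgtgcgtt
*CLSPN* (chr1:35769965-35769994): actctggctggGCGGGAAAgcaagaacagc
*CLSPN* encodes claspin, which carries the checkpoint signal at the fork, and its difference was −2.04.

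Nucleotide and folate metabolism followed the same direction: 22 of 31 genes fell and 1 rose, with a median of −1.40. *TK1*, the thymidine kinase of the S phase, read 7.17 and 7.17 on the mock arrays and 3.37 after *miR-486-3p*. Both mock arrays gave nearly the same value, and the loss was 13.9-fold. *RRM2*, the regulated subunit of ribonucleotide reductase, read 2.88 and 2.95 on the mock arrays and −0.93 after *miR-486-3p*, a 14.3-fold loss. *TYMS*, which makes dTMP, differed by −2.22, and the purine enzymes *PFAS*, *GART* and *PAICS* by −2.15, −1.75 and −1.56. The mitochondrial folate enzymes did not move together: *MTHFD2* fell by 1.13, *MTHFD2L*, its relative, rose by 1.61, and *SHMT2* had a difference of 0.33.

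Among cyclins, CDKs and their CDC25 activators 15 of 22 fell. *CCNA2* differed by −3.51 and *CCNB1* and *CCNB2* both by −3.27. *CDK4* and *CDK6*, the kinases of G1, fell by 1.48 and 1.42. The G1/S cyclin *CCNE1* was the single riser: it read 3.10 and 3.07 on the mock arrays and 4.53 after *miR-486-3p*, so that the *miR-486-3p* array was above both mock arrays. *CCNE2* had a difference of −0.69, *CCND1* of 0.53. Of 11 CDK inhibitors and pocket proteins, 5 fell and 2 rose. *CDKN1C* and *RBL2*, a pocket protein of resting cells, rose by 1.25 and 1.34. *CDKN1B* and *CDKN1A* had differences of 0.99 and 0.48, below the limit. The INK4 genes *CDKN2B* and *CDKN2A* fell by 2.75 and 2.23, with both mock arrays above the *miR-486-3p* array. Of 17 transcription factors that drive division, 9 fell, including *FOXM1* (−3.79), *E2F2* (−3.65), *E2F8* (−3.35), *MYBL2* (−3.27) and *E2F1* (−3.03). *E2F5*, a repressor type, rose by 1.27. Of 29 targets of p53, 4 fell and 4 rose with a median of −0.06, or 9 and 1 with median centering. *TIGAR* and *ZMAT3* rose by 2.83 and 1.34, and *SESN2*, *DDB2* and *TP53I3* were among those that fell.

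**Figure D2:**
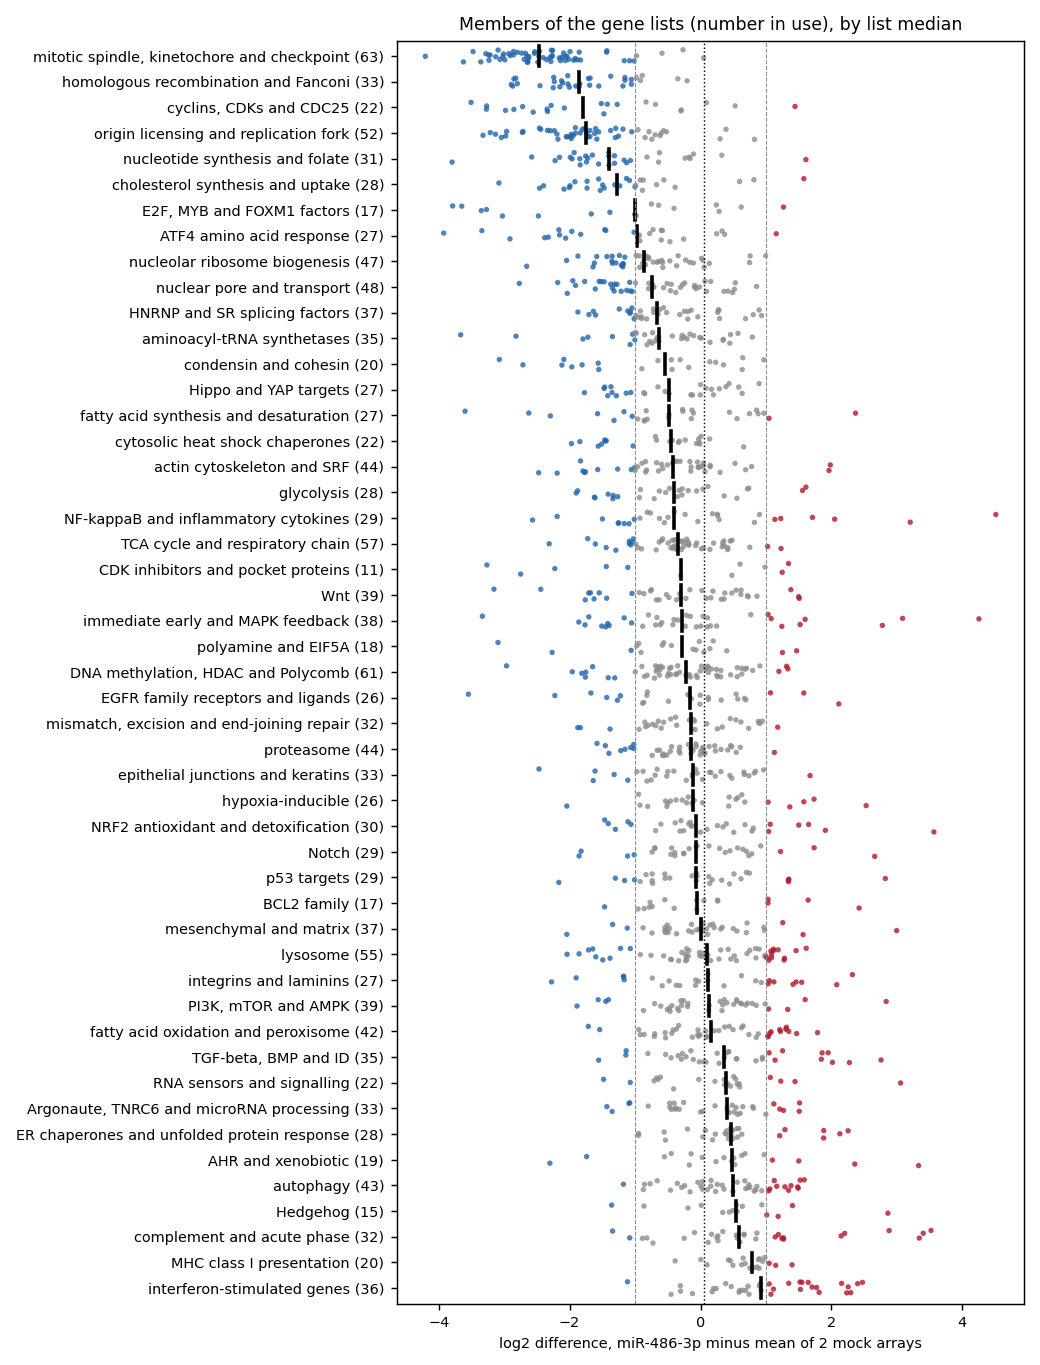
Each point is 1 gene of a list, placed at its log2 difference after *miR-486-3p* (horizontal axis); blue points fell and red points rose by at least 1 outside both mock arrays, gray points did neither. Black bars are list medians, sorted from −2.46 for mitosis to 0.92 for interferon-stimulated genes, the dotted line is the median of all genes, 0.06, and brackets give the number of genes.

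The falls split the genome maintenance genes by pathway. Of homologous recombination and Fanconi genes, which repair breaks and crosslinks around replication, 28 of 33 fell and none rose, with a median of −1.86. *BLM*, *RAD54L* and *BRCA1* differed by −2.89, −2.85 and −2.12. Of mismatch, excision and end-joining repair genes 3 of 32 fell and 1 rose, with a median of −0.15. The endonuclease *APEX1* fell by 1.88, the uracil glycosylase *UNG* by 1.84 and the end-joining factor *XRCC4* by 1.38, while *ERCC5* rose by 1.18. Condensin and cohesin split in a like manner. The condensin genes *NCAPG*, *SMC4*, *NCAPD3*, *NCAPG2*, *SMC2* and *NCAPD2* fell by 1.56 to 3.08. The cohesin ring genes *SMC3*, *SMC1A*, *STAG1* and *STAG2* lay between −0.31 and 0.35, and its kleisin *RAD21* was at −0.90. The cohesin acetyltransferase of the S phase, *ESCO2*, fell by 2.71, whereas *ESCO1* had a difference of 0.65.

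Replication-dependent histones, which package new DNA, fell with a marked exception. All 14 H4 genes fell, with a median of −2.02 and a range of −3.01 to −1.34. *H4C2* read 7.26 and 7.20 on the mock arrays and 4.22 after *miR-486-3p*. Of 16 H2A genes 10 fell and 1 rose, of 12 H3 genes 6 fell, and of 6 H1 genes 4 fell and 1 rose. The linker histone *H1-5* read 3.61 and 3.64 on the mock arrays and −0.55 after *miR-486-3p*, an 18.1-fold loss. Of 16 H2B genes, 1 fell (*H2BC7*, −3.35), 1 rose (*H2BC6*, 1.21) and the median was 0.16. The replacement histones were also uneven: *H2AX* and *H2AZ1* fell by 1.92 and 1.91, while *H3-3A* and *H3-5* differed by 0.01 and −0.00. Transcripts of the replication-dependent histones end without a poly(A) tail, and the labeling kit named in the labels primes on poly(A), whose part in these values was not tested. Copies of a histone type are nearly identical in sequence, so that their probes can share signal and the counts of genes are uncertain.

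Motors and tubulins of microtubules included both falls and rises. Of 35 kinesins, 14 fell and 9 rose. The falls included the mitotic motors *KIF15* (−3.43), *KIF20A* (−3.33), *KIF2C* (−3.09) and *KIF11* (−3.01). Those that rose included the cargo motors *KIF5C* (2.20), *KIF1A* (2.18) and *KIF5A* (1.83), best known from neurons, and the ciliary motors *KIF3A* (1.47) and *KIF3B* (1.21). Of 16 tubulins 7 fell and 1 rose: the common forms *TUBB*, *TUBA1C*, *TUBA1B* and *TUBA1A* differed by −3.05, −2.50, −2.43 and −2.38, while the neuronal *TUBB3* was at 0.07. The α-tubulins are close relatives and share the same limit as the histones.

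**Figure D3:**
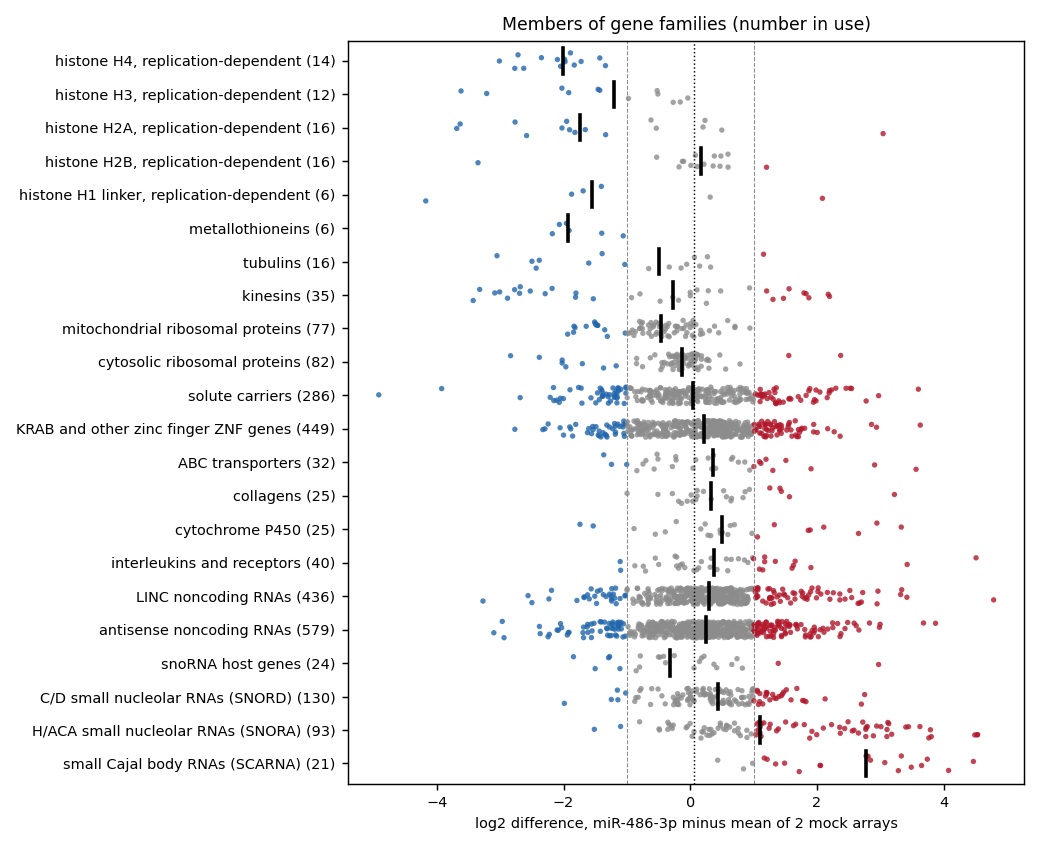
Each point is 1 gene of a family at its log2 difference after *miR-486-3p*; blue points fell, red points rose, gray points did neither, black bars are medians and brackets give the number of genes in use. The H4 genes all lie below −1, the H2B genes center on 0.16, and the families SNORD, SNORA and SCARNA at the bottom have medians of 0.43, 1.10 and 2.78.

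Among genes of protein production, those of the nucleolus, the nuclear pore, splicing and tRNA charging had more falls than the 14.1% of all genes. The shares were 38.3%, 41.7%, 27.0% and 22.9%. These lists are bright, and among the brightest 20% of the genes 20.5% fell, so that tRNA charging lay near that share. Of 47 genes of nucleolar ribosome biogenesis 18 fell and none rose, with a median of −0.86. *TCOF1*, which aids transcription of ribosomal DNA, fell by 2.66, *NHP2* of the H/ACA particles by 2.05 and the RNA polymerase I subunit *POLR1A* by 1.64. Of 48 nuclear pore and transport genes 20 fell and none rose, with a median of −0.73; *LMNB1* of the nuclear lamina (−2.77), *RANBP1* (−2.18) and *NUP107* (−2.04) were lowest. Of 37 HNRNP and SR splicing factors 10 fell and none rose (median −0.67), led by *HNRNPD* at −1.87. Of 35 aminoacyl-tRNA synthetases 8 fell and none rose (median −0.64). With the log2 values that the authors deposited, 6 splicing factors fell and 2 rose, and 5 synthetases fell and 1 rose. Alanyl-tRNA synthetase, *AARS1*, read 1.88 and 2.00 on the mock arrays and −1.73 after *miR-486-3p*, a 12.7-fold loss. Ribosomal proteins and the proteasome were nearer to the share of all genes, and below the 20.5% of the brightest genes. Of 77 mitochondrial ribosomal proteins 13 fell and none rose (median −0.47), from *MRPL15* at −1.94. Of 82 cytosolic ribosomal proteins 8 fell and 2 rose (median −0.13). *RPLP0* fell by 2.84, and *RPL3L*, a form of muscle, rose by 2.38. Of 44 proteasome genes 8 fell and 1 rose (median −0.15), and the riser was the immune regulator *PSME1* at 1.13.

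Small RNAs that guide RNA modification moved the other way. These families were added after their values had been seen. H/ACA RNAs (SNORA) guide the change of uridine to pseudouridine, C/D RNAs (SNORD) guide methylation of the ribose, and SCARNA genes encode guides of the Cajal body that act on spliceosomal RNAs. Of 21 SCARNA genes 18 rose and none fell, with a median of 2.78 and a range of 0.43 to 4.47. *SCARNA11* read 0.74 and 0.59 on the mock arrays and 5.14 after *miR-486-3p*. Of 93 SNORA genes 51 rose and 2 fell, with a median of 1.10. *SNORA48* read 2.29 and 2.13 on the mock arrays and 6.74 after *miR-486-3p*, *SNORA38B* −2.85 and −3.04 on the mock arrays and 1.59 after *miR-486-3p* and *SNORA30* −1.93 and −2.14 on the mock arrays and 2.46 after *miR-486-3p*. For each of these the mock arrays lay within 0.21 of each other and the *miR-486-3p* array above both by over 4. Of 130 SNORD genes 28 rose and 5 fell, with a median of 0.43, or 13 and 10 with median centering, and 11 of the 130 rest on a detection limit. *SNORD71* and *SNORD42A* rose by 2.75 and 2.70, and *SNORD86* fell by 1.99. Under normexp 17 of the 21 SCARNA, 39 of the 93 SNORA and 5 of the 130 SNORD genes rose. On the *miR-486-5p* array, where 2.53% of all genes rose, 1 of 21 SCARNA, 0 of 94 SNORA and 2 of 121 SNORD genes rose, with medians of 0.22, −0.05 and −0.04.

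Most of these RNAs are cut from introns, and the genes that span them did not move with them. For 76 SNORA genes RefSeq gave a single spanning gene that was also measured, 58 such genes in all. The SNORA median was 1.10 and that of the spanning genes −0.39. The small RNA was above its spanning gene in 70 of the 76 pairs. Of the 41 SNORA genes that rose, 37 lay in a gene that did not rise. Only 5 of the 58 spanning genes rose at all, beside 14.8% of all genes, so this count is near the share of any spanning gene. For 17 SCARNA genes the medians were 2.05 and −0.38, and for 102 SNORD genes 0.35 and −0.36. *SNORA51* lies within *NOP56*, which encodes a protein of the C/D particle: *SNORA51* read −0.75 and −0.76 on the mock arrays and 3.05 after *miR-486-3p*, while *NOP56* read 4.55 and 4.54 on the mock arrays and 3.36 after *miR-486-3p*. *SCARNA10* lies within the condensin gene *NCAPD2*, and their differences were 3.49 and −1.56. A probe to the small RNA also matches the unspliced transcript around it, and the mature form and its precursor cannot be told apart. Mature small nucleolar RNAs carry no poly(A) tail, and the kit primes on poly(A), so that the values measure primed forms.

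Enzymes that trim or adenylate such RNAs are given beside this result, and their part in it was not tested. Of 23 genes of the nuclear exosome and of 3′ end trimming 4 fell and 2 rose (median −0.12). The exosome core genes *EXOSC9* and *EXOSC8* differed by −1.85 and −1.81. The exosome nuclease *DIS3* rose by 1.25 and *ZFC3H1*, which targets nuclear poly(A) RNA for decay, by 1.20. *PARN*, which removes short A tails from H/ACA RNAs, had a difference of 0.12, and *TENT4B*, which adds them, of 0.88. Of 9 H/ACA particle and assembly genes 3 fell and none rose: *NHP2* read 7.47 and 7.43 on the mock arrays and 5.41 after *miR-486-3p*, *WRAP53*, which brings SCARNA particles to the Cajal body, fell by 1.81, and the pseudouridine synthase *DKC1* by 1.16. Of 7 C/D particle genes 2 fell, *NUFIP1* and *NOP56*. Host genes named for small nucleolar RNAs (*SNHG* and relatives) numbered 24, of which 5 fell and 2 rose; *SNHG3* was the lowest at −1.84.

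**Figure D4:**
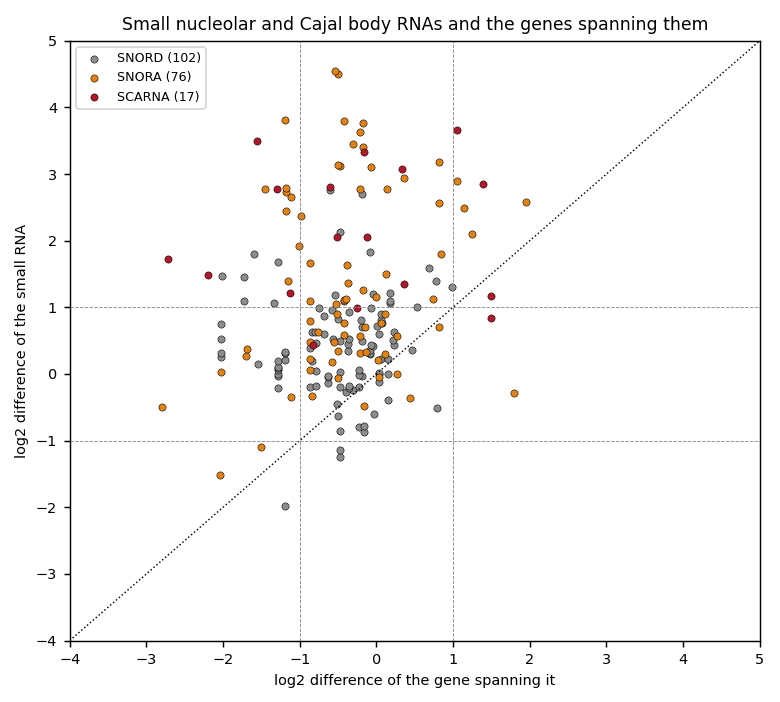
Each point is 1 small RNA with a single spanning gene that was also measured: the vertical axis is its log2 difference after *miR-486-3p* and the horizontal axis that of the spanning gene. Dashed lines mark ±1 and the dotted diagonal marks equal differences; 70 of 76 SNORA, 15 of 17 SCARNA and 86 of 102 SNORD genes lie above it.

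The amino acid response fell. Of 27 genes of the ATF4 program, which cells raise when amino acids run short, 13 fell and 1 rose, with a median of −0.96. *SLC7A5*, the carrier of large neutral amino acids, read 4.31 and 4.38 on the mock arrays and 0.42 after *miR-486-3p*, a 15.2-fold loss. *CHAC1*, which degrades glutathione, read 2.22 and 2.29 on the mock arrays and −1.09 after *miR-486-3p*. *TRIB3*, *ASNS*, *PSAT1* and *PHGDH*, of which the latter pair makes serine, differed by −2.33, −2.06, −2.38 and −1.97. *ATF4* itself had a difference of −0.58. The riser was *PPP1R15A*, which restores translation, at 1.16. The glycine carrier *SLC6A9*, outside the list, had the largest fall of all genes that passed the naming rule: it read 1.02 and 1.07 on the mock arrays and −3.88 after *miR-486-3p*. The CARE letters TGATGNAA stood in 1.88% of all promoters, in 1.82% of those of genes that fell and in 1.62% for genes that rose. They stood in 5 of 23 matched promoters of the list (21.7%). They are shown in capitals for *ASNS* and *SLC7A1*, which fell by 2.06 and 2.15:
*ASNS* (chr7:97872458-97872487): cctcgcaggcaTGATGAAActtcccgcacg
*SLC7A1* (chr13:29595663-29595692): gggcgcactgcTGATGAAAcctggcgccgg

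Chaperones of the endoplasmic reticulum did not follow the ATF4 list. Of 28 genes of the unfolded protein response none fell and 6 rose, with a median of 0.46. *HSPA5*, the main chaperone of that compartment, read 1.72 and 1.68 on the mock arrays and 3.58 after *miR-486-3p*, and both mock arrays were below it. *DNAJB9*, *ERO1B* and the sensor kinase *EIF2AK3* rose by 2.26, 2.13 and 1.88, while *XBP1* and *CALR* had differences of −0.95 and −0.94. Under normexp 2 of the list rose and 1 fell. Cytosolic heat shock chaperones went the opposite way: 8 of 22 fell and none rose (median −0.45), with *HSP90AB1* at −1.97, *HSPB1* at −1.84 and *HSPD1* at −1.45.

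Genes of cholesterol supply fell. Of 28 genes, 18 fell and 1 rose, with a median of −1.27. *MVK*, mevalonate kinase, read 4.76 and 4.73 on the mock arrays and 1.67 after *miR-486-3p*, an 8.46-fold loss. *FDPS*, which makes farnesyl diphosphate, fell by 2.40. *INSIG1*, a target and brake of the sterol factor SREBP, fell by 1.92, and *INSIG2*, which does not depend on sterols in the same way, was the single riser at 1.58. The sterol element TCACCCCAC stood in 1 of 22 matched promoters, that of *SREBF2*, and in 0.402% of all. Only this exact word was searched, so elements with other letters were not counted. Of 27 genes of fatty acid synthesis and desaturation 7 fell and 2 rose (median −0.48). *FASN*, the fatty acid synthase, read 6.13 and 6.10 on the mock arrays and 2.52 after *miR-486-3p*, with both mock arrays far above, whereas the desaturase *SCD* had a difference of −0.49 and *FADS3* rose by 2.37. In fatty acid oxidation and the peroxisome 2 of 42 genes fell and 11 rose (median 0.15), but with arrays centered on their medians 7 fell and 2 rose. *PPARA* and *CPT1A* rose by 1.79 and 1.47.

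Lists of energy metabolism and degradation are given with their counts, beside 20.5% falls and 6.11% rises among the brightest genes of any kind. Of 28 glycolysis genes 8 fell and 2 rose (median −0.41): *LDHA* fell by 1.88 and *PFKP* by 1.61, while *HK1* rose by 1.61 and the glucose carrier *SLC2A3* by 1.56. *GAPDH* had a difference of 0.36. Of 57 genes of the TCA cycle and respiratory chain 10 fell and 2 rose (median −0.35), with citrate synthase, *CS*, lowest at −2.31. Of 43 autophagy genes 1 fell and 11 rose (median 0.49), a balance that median centering leveled to 5 and 5: *WIPI2*, *GABARAPL1*, *ATG16L1* and the initiating kinase *ULK1* rose by 1.59, 1.52, 1.49 and 1.04, and *MAP1LC3A* fell by 1.18. Lysosome genes went both ways, with 9 falls and 12 rises of 55, or 11 and 2 with median centering. *CTSA* fell by 1.65, *IDS* rose by 1.46, and the regulator *TFEB* had a difference of 0.55. Of 39 genes of PI3K, mTOR and AMPK signaling 4 fell and 4 rose. The insulin receptor *INSR* rose by 2.84 and *TSC1*, a brake on mTOR, by 1.60, while the translation repressor *EIF4EBP1* fell by 1.89.

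Interferon-stimulated genes had the highest median of the 49 lists. Of 36 genes in use 17 rose and 1 fell, with a median of 0.92, and 7 more on the array were too dim to use. *IFIT2*, which binds foreign RNA, read −2.01 and −2.11 on the mock arrays and 0.41 after *miR-486-3p*. *ISG15*, a ubiquitin-like modifier, read 4.32 and 4.30 on the mock arrays and 6.56 after *miR-486-3p*. The mock arrays lay below the *miR-486-3p* array in both cases. *IFITM1*, *PARP9*, *MX1* and *IFIT3* rose by 2.40, 2.30, 2.23 and 1.81. *IRF9* and *STAT2*, which are part of the factor that binds these genes, rose by 1.77 and 1.35. *IFI35* fell by 1.12. Under normexp 8 of the 36 rose and none fell. Of 22 RNA sensors and their signaling genes 4 rose and 2 fell (median 0.39), or 2 and 5 with median centering. *IRF1* rose by 1.44 and *DHX58* by 1.23. The sensors *RIGI* and *IFIH1* and the RNA-dependent kinase *EIF2AK2* had differences of 0.41, 0.36 and 0.56, and *CGAS* and *IRF3* fell by 1.48 and 1.07. On the *miR-486-5p* array 3 of 35 interferon-stimulated genes rose and 3 fell, with a median of −0.04, beside 2.53% and 4.61% of all genes.

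The interferon-stimulated response element, written as 2 copies of GAAA with 2 bases between them, stood in 20 of 26 matched promoters of that list (76.9%) and in 2.97% of all, with 4.10% of the genes that rose and 2.15% of those that fell. It is shown in capitals for genes that rose, on the strand of the gene (in *IFIT1* and *IFI44* it reads on the other strand, as TTTC):
*ISG15* (chr1:1013380-1013409): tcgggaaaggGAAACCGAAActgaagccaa
*MX1* (chr21:41420559-41420588): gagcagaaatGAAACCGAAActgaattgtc
*IFIT1* (chr10:89392497-89392526): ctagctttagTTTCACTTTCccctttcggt
*IFI44* (chr1:78649761-78649790): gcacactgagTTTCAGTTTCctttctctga
*IFIT1* and *IFI44* rose by 1.65 and 1.52.

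Neighboring immune lists were mixed. Of 20 genes of MHC class I presentation 3 rose and none fell, with a median of 0.78, though only 1 rose with median centering. *B2M*, the light chain, read 4.61 and 4.53 on the mock arrays and 5.72 after *miR-486-3p*, and *HLA-C* and *HLA-B* had differences of 0.90 and 0.68. HLA genes are close relatives and their probes may share signal. Of 32 genes of complement and the acute phase 11 rose and 2 fell (median 0.58), or 6 and 5 with median centering. *C1R*, a protease that starts the classical cascade, read −2.95 and −2.94 on the mock arrays and 0.58 after *miR-486-3p*, an 11.5-fold gain, its partner *C1S* rose by 3.34, and the antiprotease *SERPINA1* by 2.20. *CD59*, which shields cells from complement, fell by 1.08. Of 29 NF-κB and cytokine genes 8 fell and 6 rose. *CXCL2* and *CXCL1*, which attract neutrophils, fell by 2.57 and 2.19, and *RELB*, *RELA* and *NFKB2* by 1.26, 1.09 and 1.01. *IL11* read −2.77 and −2.77 on the mock arrays and 1.75 after *miR-486-3p* and *TNFAIP2* rose by 3.21. *IL11*, a cytokine of the IL-6 family, was thus dim on both mock arrays and 22.9-fold higher on the other. Of 40 interleukin and receptor genes 12 rose and 2 fell, or 6 and 5 with median centering and 4 and 0 under normexp.

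Most lists of growth signaling held both falls and rises. Of 38 immediate early and MAPK feedback genes 10 fell and 8 rose. *MYC* read 5.04 and 4.87 on the mock arrays and 1.62 after *miR-486-3p*, a 10.1-fold loss. The feedback genes *SPRY1*, *DUSP5*, *SPRY2* and *DUSP6* fell by 1.76, 1.71, 1.45 and 1.05, and *FOSL1* by 1.86. *NR4A3*, *FOS* and *FOSB* rose: *NR4A3* read −1.64 and −1.66 on the mock arrays and 2.61 after *miR-486-3p*, and the differences of the others were 3.09 and 2.78. *EGR1* had a difference of −0.88 and *JUN* of 0.10. Of 26 genes of EGFR family signaling 6 fell and 3 rose. The ligand *NRG1* fell by 3.55 and the receptor inhibitor *ERRFI1* by 2.23, whereas *EGFR* had a difference of −0.19. Of 35 TGF-β and BMP genes 9 rose and 3 fell (median 0.37), or 6 and 4 with median centering. The inhibitors *SMAD6*, *SMAD7*, *BAMBI* and *SKIL* rose by 2.76, 2.27, 2.02 and 1.95, while the ligands *TGFB1* and *TGFB2* fell by 1.56 and 1.14. Of 39 Wnt genes 9 fell and 3 rose: *DKK1*, *WNT5B* and *FZD7* fell by 3.16, 2.44 and 1.76, and *AXIN2*, a target and brake, rose by 1.38. Of 29 Notch genes 4 fell and 3 rose, with *HEYL* at −1.86 and the ligand *DLL1* at 2.66. Of 27 Hippo and YAP genes 9 fell and none rose (median −0.48). *NF2*, *WWTR1*, *CCN1* and *AXL* fell by 1.77, 1.47, 1.42 and 1.35, and *YAP1* had a difference of 0.08. Of 15 Hedgehog genes 1 fell, the target *GLI1* at −1.36, and 4 rose, with the ligand *IHH* at 2.86; with median centering 2 fell and 2 rose, and under normexp none did. The BCL2 family had 1 fall and 4 rises of 17, or 6 and 2 with median centering: *BOK* fell by 1.47, the BH3 proteins *BIK* and *BMF* rose by 2.42 and 1.65, and *MCL1* and *BCL2L1* had differences of 0.26 and −0.86.

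Among the lists of cytoskeleton and adhesion, that of actin had the largest share of falls, but it was also the brightest of them. Of 44 actin and SRF genes 10 fell and 2 rose (median −0.42). *ZYX*, a focal adhesion protein, fell by 2.47, cofilin, *CFL1*, by 1.80, and the actins *ACTG1* and *ACTB* by 1.76 and 1.06. *TAGLN* and *CNN1*, of smooth muscle, rose by 1.98 and 1.96. Of 33 junction and keratin genes 5 fell and 1 rose, with *CLDN1* at −2.47 and *CLDN3* at 1.67. Of 27 integrin and laminin genes 5 fell and 8 rose, or 6 and 5 with median centering: *ITGB4* fell by 2.28, and *ITGB8*, *ITGB3* and *ITGB1* rose by 2.32, 2.08 and 1.12. Of 37 mesenchymal and matrix genes 3 fell and 3 rose. *LOX*, which crosslinks collagen, fell by 2.04, and *SPARC* read −3.10 and −3.27 on the mock arrays and −0.18 after *miR-486-3p*. *VIM*, *FN1* and *CDH2* had differences of −0.55, −0.18 and −0.02. No collagen of 25 fell and 5 rose, with *COL7A1*, the anchoring fibril, at 3.23. With median centering 1 fell and 4 rose, under normexp 1 rose, and with the brightest probe of each gene 2 rose. The family was dim, and its 20% of rises lay below the 27.6% of the dimmest genes.

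Stress and xenobiotic lists held single large members rather than a common shift, apart from the metallothioneins, which all fell. Of 30 NRF2 genes 5 fell and 6 rose (median −0.07), or 6 and 4 with median centering. The export pump *ABCC3* read −2.87 and −2.81 on the mock arrays and 0.73 after *miR-486-3p*, *ABCC2* rose by 1.91 and *NQO1* by 1.50, while *SLC7A11*, *PGD* and *FTH1* fell by 1.46, 1.41 and 1.30 and the ferritin light chain *FTL* rose by 1.65. The antioxidant element TGACNNNGC stood in 6 of 21 matched promoters (28.6%), against 14.9% of all. Over all genes that fell the share was 14.85%, and over all that rose 15.14%. Of 19 AHR and xenobiotic genes 2 fell and 4 rose. *CYP1A1*, the classical AHR target, read −2.34 and −2.40 on the mock arrays and 0.96 after *miR-486-3p*, a 10.1-fold gain, whereas *CYP1B1* and *TIPARP*, targets of the same receptor, had differences of −0.55 and 0.03. Of 26 hypoxia genes 1 fell and 5 rose, or 4 and 3 with median centering: *NDRG1* rose by 2.53, and *VEGFA* had a difference of −0.10. All 6 metallothioneins in use, which bind zinc and copper, fell (median −1.93). *MT1X* read 2.47 and 2.46 on the mock arrays and 0.29 after *miR-486-3p*; the genes of this family are near copies of each other and may share signal. Of 18 polyamine genes 3 fell and 2 rose. *SRM*, spermidine synthase, read 3.58 and 3.72 on the mock arrays and 0.56 after *miR-486-3p*, and the inhibitors of ornithine decarboxylase *OAZ2* and *OAZ3* rose by 1.25 and 1.47, with *ODC1* at 0.14.

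Of 61 genes of DNA methylation, HDACs and Polycomb 8 fell and 3 rose (median −0.22). The maintenance methyltransferase *DNMT1*, its partner *UHRF1* and the H3K27 methyltransferase *EZH2* fell by 1.81, 1.65 and 1.96, whereas *EZH1*, the form of resting cells, had a difference of 0.68 and *SMARCA2* rose by 1.33. Of 33 genes of the miRNA machinery 4 fell and 5 rose, or 5 and 2 with median centering. *DROSHA* and *DGCR8*, which cut the primary transcript, fell by 1.35 and 1.08. The effectors *TNRC6A* and *AGO4* both rose by 1.51, *PAN3*, a deadenylase subunit, by 1.27, and *ZSWIM8*, which acts in the decay of miRNAs, by 1.21. *AGO2* had a difference of −0.00 and *DICER1* of −0.47.

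The genes with the largest differences, among those well above background on the 3 arrays with mock values within 0.5 of each other, were in part members of the groups above and in part outside them. Besides *SLC6A9*, *AURKB*, *H1-5*, *SLC7A5*, *RRM2* and *TK1*, the 10 largest falls included *ANKRD30BP2* (−4.10), *FAM133A*, the hair keratin partner *KRTAP2-3* (−3.88) and the stress hormone *CRH* (−3.85). *CRH* read 3.32 and 3.24 on the mock arrays and −0.56 after *miR-486-3p*. Besides *IL11* and 4 small RNAs, the 10 largest rises were *CLEC3B* (5.73), *DHDH* (5.39), *SBSN* (5.14), *GGTLC1* (4.49) and *TMEM190* (4.42). *CLEC3B*, which encodes tetranectin, read −3.78 and −3.33 on the mock arrays and 2.17 after *miR-486-3p* and *DHDH*, a dehydrogenase of dihydrodiols, read −3.61 and −3.60 on the mock arrays and 1.78 after *miR-486-3p*. Each of the 2 genes was dim on the mock arrays and above both on the *miR-486-3p* array.

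**Figure D5:**
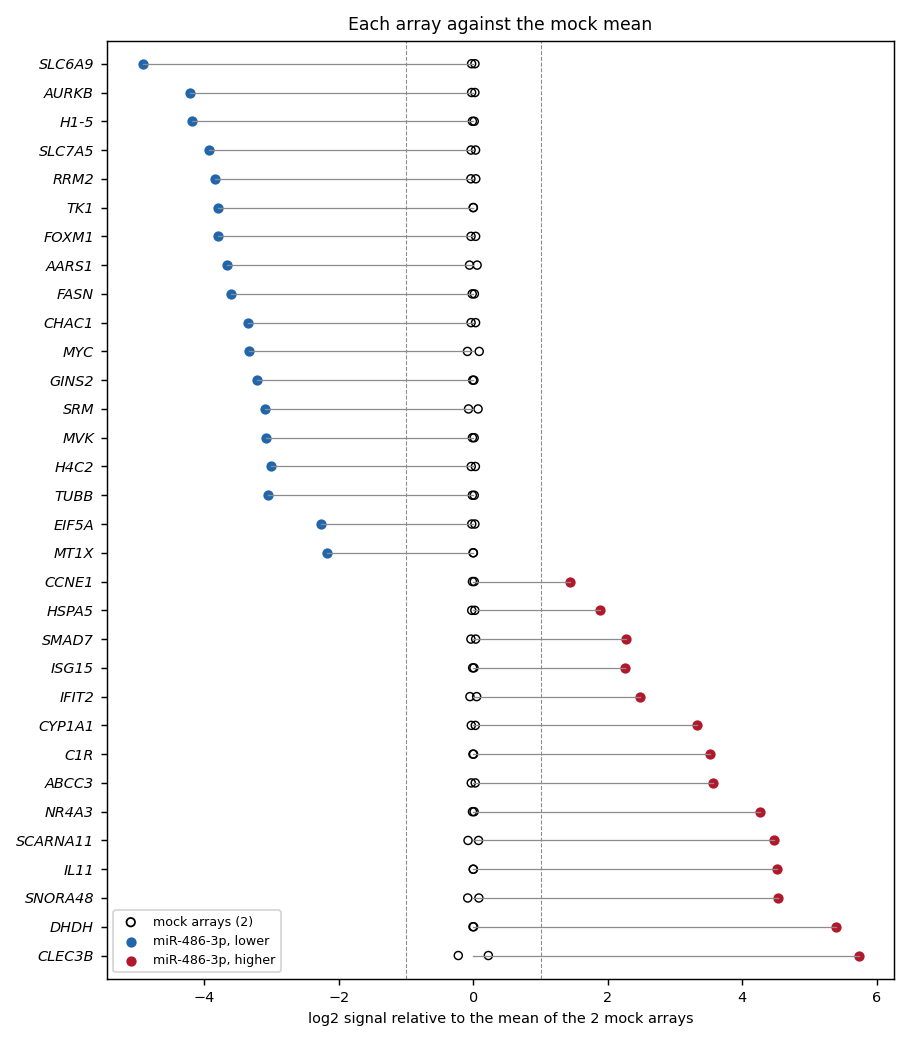
For each gene, open circles give the 2 mock arrays and the filled circle the *miR-486-3p* array, as log2 signal relative to the mock mean (horizontal axis, so that rows start at 0); dashed lines mark ±1. The circles of the mock arrays lie close to 0, farthest apart for *CLEC3B*, and the filled circles run from −4.92 for *SLC6A9* to 5.73 for *CLEC3B*.

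Genes reported elsewhere as targets of *miR-486-3p* were read for themselves. *EIF5A*, the hypusinated translation factor, read 4.65 and 4.70 on the mock arrays and 2.40 after *miR-486-3p*, a 4.82-fold loss. *BRD9*, of a chromatin remodeler, read 1.29 and 1.35 on the mock arrays and 0.47 after *miR-486-3p*, and *XRCC1*, a scaffold of single-strand break repair, read 4.52 and 4.70 on the mock arrays and 3.76 after *miR-486-3p*; both lay below the mock arrays by less than 2-fold, and limma called both lower. *CRABP2*, a carrier of retinoic acid, had a difference of 0.82 and *CYP1A1* rose, as given above. Seed sites were not analysed here.

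Most large families had members on both sides, and for the largest the balance turned with the scaling. Of 449 ZNF genes, many of which encode KRAB repressors, 40 fell and 61 rose (median 0.22), or 86 and 32 with median centering, from *ZNF575* at −2.77 to *ZNF862* at 3.63. Of 286 solute carriers 46 fell and 48 rose (69 and 27 with median centering), of 64 RAB genes 5 fell and 8 rose (11 and 3), of 57 F-box genes 6 fell and 8 rose (7 and 5), and of 46 TRIM genes 6 fell and 9 rose (9 and 5). ABC transporters had 3 falls and 9 rises of 32 (6 and 4). Cytochromes P450 had 2 and 8 of 25 (3 and 6), ADAM and ADAMTS proteases 1 and 7 of 25 (3 and 6). Potassium channels had 3 and 10 of 49 (4 and 7). The P450, ADAM and potassium channel families were dim, and in the dimmest 20% of the genes 27.6% rose. Under normexp their falls were 1, 0 and 1 and their rises 2, 3 and 2. HOX genes had 6 falls and 4 rises of 30, with *HOXD13* at −1.61, and of 15 KLF factors 2 fell, *KLF5* by 1.84 and *KLF4* by 1.51. Olfactory receptors, which these cells are not known to use, had 3 falls and 5 rises of 78, or 12 and 2 with median centering. Noncoding genes were dim. Of 436 LINC genes 29 fell and 64 rose, and of 579 antisense genes 54 fell and 94 rose. Their medians were 0.29 and 0.25. The shares that rose, 14.7% and 16.2%, lay near the 14.8% of all genes and below the 27.6% of the dimmest. A detection limit entered for 79 LINC and 112 antisense genes. With detection required on all 3 arrays, 23 LINC genes fell and 30 rose, and 44 antisense genes fell and 59 rose. Under normexp the counts were 2 and 7 for LINC and 9 and 7 for antisense genes. With median centering the counts were 53 and 41 for LINC and 88 and 54 for antisense genes.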

How the data were processed

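Cells labeled A549 were transfected with *miR-486-3p* or treated with reagent alone, and total RNA was labeled with Cy3 by the Low Input Quick Amp kit, which primes from poly(A). Per the file headers, the authors scanned 4 Agilent arrays and Feature Extraction 12.1.1.1 gave each spot's background-corrected intensity, deposited without scaling between arrays. A log2 table that the authors deposited as well had quartiles that were identical on the 4 arrays (the method is not given in the sources used here), and it served as an alternative. The number of arrays limits the precision.

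Control and outlier spots were left out. Intensities were scaled as log2 minus the array's 75th percentile, and spots were averaged per probe and probes per gene. Of 33080 probes with a RefSeq accession, 31104 were matched to a symbol. Probes without a symbol entered no count of genes. Where a gene had several probes in use (4387 genes), 189 had probes that differed by over 0.5 in opposite directions. Where a gene was not above background on one side, that side was set to the detection limit and its difference is a bound (173 of the falls and 469 of the rises). limma 3.58.1 (R 4.3.3) was fitted to the 3 arrays and tested on simulated data, and figures were made in Python 3.11.15. Replicate mock arrays are not said to come from separate cultures, so the p-values measure only the spread between them.

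The members and the 49 lists were chosen with earlier results of these data known. Named genes were the 10 largest falls and rises, the anchors and the 3 largest falls and rises of each list, the 2 largest of each family, and 5 genes reported as targets. The small RNA families, the trimming and particle lists, the genes known to be deleted or expressed in A549, and other members named for their role were chosen after values were seen. The mature sequence of the miRNA is not printed, and some genes are not reported here.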

Additional observations from a re-analysis of the deposited data

How the results depend on the processing

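No paired analysis was possible because the *miR-486-3p* group holds a single array, and all arrays lay on 1 slide, so no slide block could be fitted. Against the 2311 falls and 2431 rises reported, leaving out either mock array gave 2289 to 2333 falls and 2425 to 2429 rises. Centering each array on its median gave 3809 and 1386, normexp gave 1312 and 710, and a limit of 0.5 in place of 1 gave 4467 and 5003. limma called 3301 genes higher with median centering, against 5228. The methods' t-test called 0 genes lower and 0 higher after Benjamini-Hochberg adjustment, and 7015 genes at an unadjusted p under 0.05. With the brightest probe in place of the mean over probes, the differences of *IL1RAP* (−1.11), *LAMA4* (−1.18), *RPL32* (1.56) and *UQCRB* (1.02) became 0.32, 0.035, −0.13 and −0.062. Requiring signal on all 3 arrays also gave 0.035 for *LAMA4*. The causes were not tested. limma without a mock array has no residual degree of freedom and gave no test.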
